A study of Mus musculus with 12 samples.

Results

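The suppressors of cytokine signalling (SOCS) are a family of 8 genes, Socs1 to Socs7 and Cish, and they were followed here by symbol in bulk RNA sequencing of mouse bone marrow-derived macrophages (BMDMs). All 8 were present among the 24421 genes of the count table. Of these genes 11468 had enough counts to be tested, and they included 6 of the 8 SOCS genes. Socs2 and Cish were too low, and Socs1 was kept only through libraries of the groups given immune complex, 2 of DMSO IC and 1 of iBET IC. The cells came from C57BL/6 mice, with no transgene or deletion named in the labels, and the marrow was cultured with M-CSF (100 ng/mL, 5 days, medium renewed on day 3). Exposure lasted 4 h, to ovalbumin alone (Ova) or to ovalbumin opsonised with IgG, an insoluble immune complex (IC) that cross-links Fc gamma receptors. Each stimulus was combined with I-BET151 (iBET, an inhibitor of the BET bromodomain proteins, which bind acetylated chromatin and promote transcription) at 5.0 µM, or with the solvent DMSO, given as 5% in the labels. Per the labels both were added simultaneously, but the study describes the inhibitor as preceding the stimulus, and which holds is not settled here. The 4 groups (DMSO Ova, DMSO IC, iBET Ova and iBET IC) held 1 library from each of the 3 mice, named A, B and C.

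Cytokine receptors of the JAK-STAT type have no enzyme activity of their own. Ligand binding brings together JAK kinases, which phosphorylate the receptor and the STAT transcription factors, and the STATs then enter the nucleus. SOCS proteins are the classical feedback inhibitors of this chain: each carries an SH2 domain that binds phosphotyrosine and a SOCS box that recruits elongins and a cullin, so that bound partners are ubiquitinated. Socs1 and Socs3 also have a short region that blocks JAK activity directly; Socs1 is best known for restraining interferon signalling and Socs3 for restraining the gp130 receptor of the IL-6 family in macrophages. Cish and Socs2 are known as STAT5-driven inhibitors of growth hormone and related receptors. Socs4 and Socs5 have been linked to the epidermal growth factor receptor, and Socs6 and Socs7 to insulin receptor signalling.

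Promoter sequences from RefSeq on GRCm38.p6 were used for 4 of the 8 genes, Socs1, Socs3, Socs4 and Cish, each with 250 bases before and 50 after a transcript start. Each was searched on both strands for the palindromic STAT motif TTCNNNGAA, which 8.30% of 32851 promoters of the same length contained. Socs3 and Cish held it and Socs1 and Socs4 did not. The promoters of Socs3, the only tested member with an adjusted p under 0.05 for IC, and of Cish, barely detected in any group, are shown because they share this motif. The motif is given in capitals, and both are written 5′ to 3′ on the gene's strand.
Socs3 (chr11:117969317-117969616, minus strand): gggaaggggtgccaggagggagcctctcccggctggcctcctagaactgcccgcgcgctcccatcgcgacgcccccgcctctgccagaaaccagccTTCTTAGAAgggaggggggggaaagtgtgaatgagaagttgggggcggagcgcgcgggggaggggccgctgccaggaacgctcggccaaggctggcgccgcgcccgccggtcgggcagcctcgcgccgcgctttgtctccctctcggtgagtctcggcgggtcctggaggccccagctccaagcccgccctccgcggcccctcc
Cish (chr9:107296409-107296708, plus strand): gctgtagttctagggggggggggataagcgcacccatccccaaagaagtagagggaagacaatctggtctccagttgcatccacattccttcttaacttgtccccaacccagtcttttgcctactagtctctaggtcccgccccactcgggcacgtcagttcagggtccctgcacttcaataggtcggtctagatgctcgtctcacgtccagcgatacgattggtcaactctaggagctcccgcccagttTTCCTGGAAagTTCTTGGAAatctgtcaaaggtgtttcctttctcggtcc
In Socs3 the match began 154 bases before the start, and in Cish the 2 matches began at the start itself and 11 bases after it. The AP-1 motif TGANTCA, present in 7.81% of promoters, and GGGNNTTCC, a form of the NF-kB motif present in 5.82%, were in none of the 4. Other forms of the NF-kB motif were not searched. A match describes letters in this window and no factor was measured on it.

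Libraries held between 7.55 M and 17.4 M counts. The ribosomal precursor Rn45s took 1.41% to 7.83% of counts in 11 libraries and 77.4% in mouse A's DMSO Ova library, leaving 1.77 M for all other genes. Calls of SOCS genes that use this library are also given without it, and the correlations at the end include it. Macrophage markers fitted the label, with 10 of 10 tested and a summed level of 7373 to 10622 CPM (counts relative to the effective library size) in each library. The neutrophil list (7 of 8 genes in the table, 5 of them tested) summed to 9.76 to 54.0 CPM in DMSO Ova, 12.1 to 49.1 in DMSO IC, 14.6 to 56.3 in iBET Ova and 17.3 to 44.8 in iBET IC. The lists for dendritic, T, B, mast, stromal and erythroid cells each stayed at or below 2.57 CPM in every library, with Pax5, Cpa3 and Mcpt8 at 0 in all 12. In bulk RNA, fewer cells expressing a gene and less RNA per cell cannot be told apart.

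Levels between genes were compared as CPM per kb of annotated exon. Socs5 was the most abundant family member in DMSO Ova, at 8.07 ± 0.960 CPM per kb (SD, n = 3), above Socs6 (2.63 ± 0.382), Socs7 (2.63 ± 0.204) and Socs4 (2.56 ± 0.364), whose libraries overlapped each other. Socs3 (0.315 ± 0.283) and Socs1 (0.185 ± 0.0481) lay below these with no overlap and overlapped each other, and Cish and Socs2 lay lower still. With iBET the order changed. Socs7 led in iBET Ova at 5.17 ± 0.263 CPM per kb, followed by Socs6 (3.76 ± 0.338), Socs5 (3.35 ± 0.206), Socs4 (2.34 ± 0.171) and Socs3 (0.638 ± 0.125), with no overlap between any neighbours in this order. In DMSO IC, Socs5 again led with 6.69 ± 0.445, and Socs7, Socs6, Socs4 and Socs3 followed at 3.18, 2.80, 2.66 and 2.64 CPM per kb with overlapping libraries. In iBET IC, Socs7 led with 5.96 ± 0.367, and Socs5, Socs6, Socs3 and Socs4 followed at 4.06, 4.02, 3.38 and 3.02, each overlapping the next. On this scale Socs3 stood apart from Socs4 in both Ova groups and overlapped it in both IC groups. The order depends on the exon lengths, and the annotation used for counting is not known. In unscaled CPM, Socs6 averaged above Socs7 in iBET Ova (42.7 against 37.6) and iBET IC (45.6 against 43.3). Unscaled, Socs3 lay below Socs4 without overlap in DMSO IC (5.62 to 10.3 against 14.6 to 20.7) and in iBET IC (6.35 to 12.2 against 18.9 to 21.9).

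**Figure D1:**
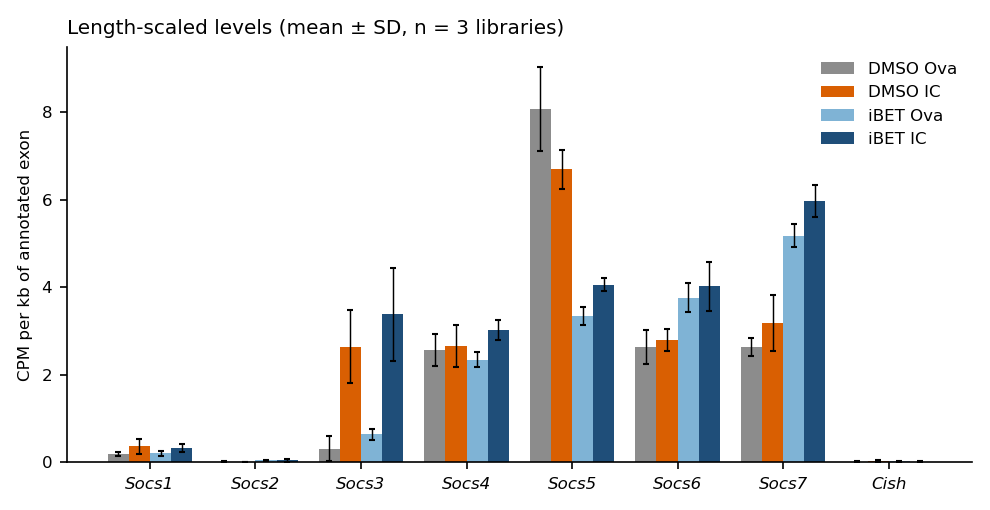
Mean CPM per kb of annotated exon for the 8 SOCS genes (x axis) in the 4 groups; bars start at 0 and error bars are the SD of 3 libraries. Socs5 is the tallest in DMSO Ova (8.07) and DMSO IC (6.69), Socs7 in iBET Ova (5.17) and iBET IC (5.96), and Socs3 rises from 0.315 to 2.64 between DMSO Ova and DMSO IC.

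The response to Fc gamma receptor engagement without the inhibitor was measured as DMSO IC against DMSO Ova. Socs3 (chr11:117966079-117970047, minus strand, GRCm38/mm10), the feedback inhibitor of gp130 signalling, was the only one of the 6 tested members that passed the test. Its level was 0, 1.15 and 1.58 CPM in DMSO Ova (mice A, B and C) and 6.99, 10.3 and 5.62 CPM in DMSO IC. Every IC library was higher than every Ova library. The 0 comes from the Rn45s-rich library of mouse A, in which 3 counts, the limit that a count of 0 allows, equal 1.54 CPM, above the level of mouse B and just below that of mouse C. Socs3 rose by a log2 fold change of 2.64 (SE 0.42, 6.23-fold, adjusted p = 0.00827), in 3 of 3 mice. Without the mouse A library of DMSO Ova the log2 fold change was 2.46 (adjusted p = 0.0109). Across all genes tested 1.22% were called in this contrast, 0.732% higher and 0.488% lower.

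The call for Socs3 depended on which libraries were in the fit. It was lost without the mouse B library of DMSO Ova (log2 fold change 2.58, adjusted p = 0.0863), without mouse B as a whole (2.34, 0.644), without mouse C (3.16, 0.0790), and with the 2 groups fitted alone (2.65, 0.122). Calls over all genes also fell in these fits, from 140 to 45, 0, 10 and 5 in the same order. The log2 fold change of Socs3 itself stayed between 2.34 and 3.64 in all alternatives in which Socs3 was tested. Counts behind it were low, 34 in DMSO Ova and 236 in DMSO IC, summed over 3 libraries.

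The same stimulus in the presence of iBET gave a rise of similar size. Socs3 stood at 1.62, 1.65 and 2.26 CPM in iBET Ova and at 12.2, 10.8 and 6.35 CPM in iBET IC, again with no overlap. The log2 fold change was 2.43 (SE 0.37, 5.38-fold, adjusted p = 0.0118), in 3 of 3 mice, and 0.349% of all genes were called in this contrast, 0.314% higher and 0.0349% lower. Leaving out the mouse A or B library of iBET Ova or of iBET IC ended the call, with adjusted p of 0.0819 and 0.0935 for iBET Ova and 0.0685 and 0.0643 for iBET IC, as did leaving out mouse B (1.00) or mouse C (0.0571). In these fits the number called over all genes also fell, from 40 to 19 and 12 for iBET Ova and to 20 and 16 for iBET IC. That number was 0 without mouse B and 9 without mouse C. The log2 fold change of Socs3 ranged from 2.16 to 2.81 in the alternatives in which Socs3 was tested. Mouse C had the smallest rise in both arms, with differences in log2 CPM of 1.72 in DMSO and 1.42 in iBET, against 2.98 and 2.57 in mouse B and 5.24 and 2.78 in mouse A, the first of these set by the library at 0.

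**Figure D2:**
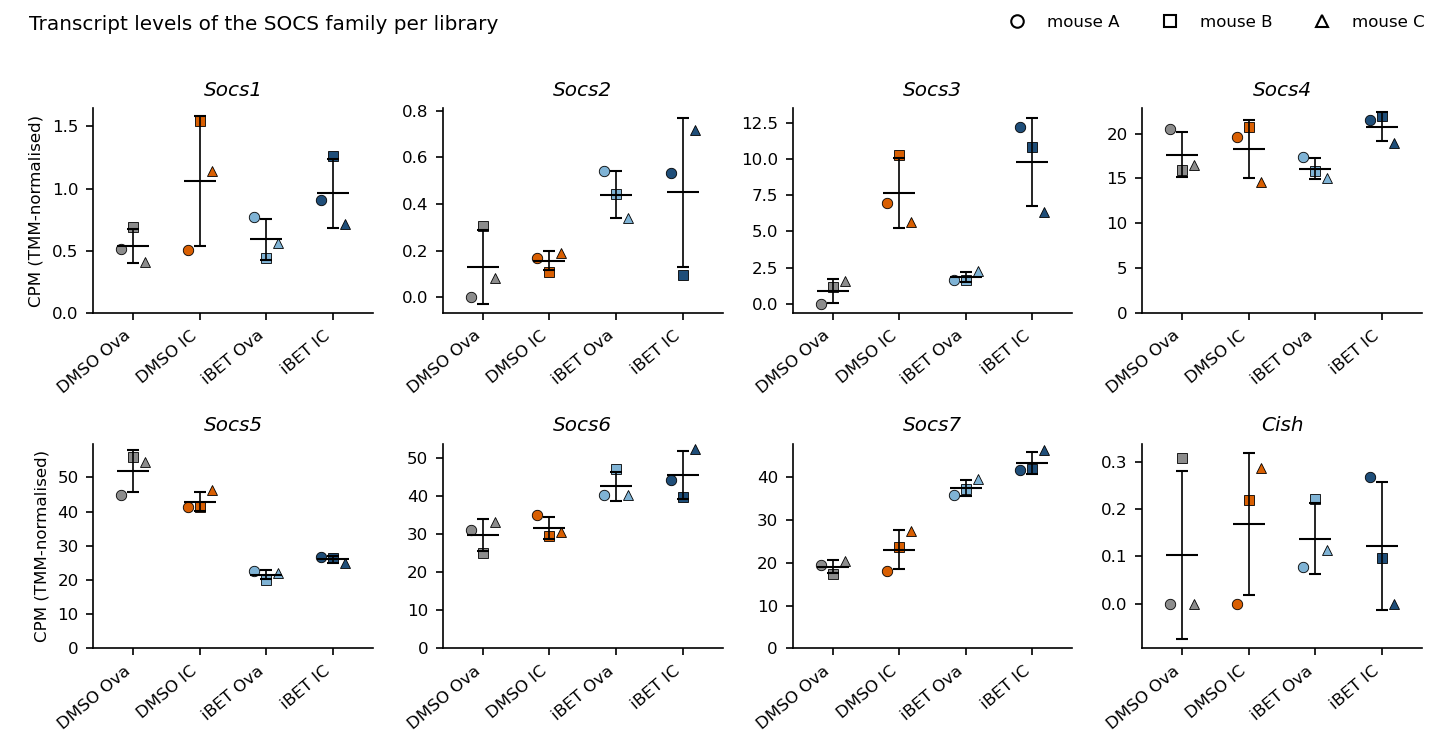
TMM-normalised CPM of each SOCS gene in the 12 libraries, by group; each panel has its own scale, symbols mark the mouse, the horizontal line is the mean and the bars are the SD of 3 libraries. All 6 IC libraries of Socs3 (5.62 to 12.2) lie above all 6 Ova libraries (0 to 2.26), all 6 iBET libraries of Socs5 lie below the DMSO libraries, and those of Socs6 and Socs7 lie above them.

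Whether iBET changed this response was tested as an interaction, the response to IC with iBET less the response without it. For Socs3 it was -0.21 on the log2 scale (SE 0.56, adjusted p = 1.00), with a 95% interval of -1.42 to 1.00, and -0.02 without the Rn45s-rich library. A difference between the arms was not detectable, and the interval does not show that the responses were alike. iBET by itself gave Socs3 log2 fold changes of 0.59 in Ova (95% interval -0.42 to 1.60, adjusted p = 0.369), or 0.38 without the Rn45s-rich library, and 0.38 in IC (-0.32 to 1.07, 0.388). Neither passed the test.

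The other tested members did not pass it for IC in either arm. Socs5 went from 44.7, 56.0 and 54.6 CPM in DMSO Ova to 41.2, 41.3 and 46.2 in DMSO IC, a log2 fold change of -0.29 (SE 0.11, adjusted p = 0.296), or -0.39 without the Rn45s-rich library (adjusted p = 0.128). With iBET it went from 22.5, 20.0 and 22.0 to 26.8, 26.4 and 24.9 CPM, a log2 fold change of 0.28 (SE 0.11, adjusted p = 0.566). These changes had opposite signs in every mouse. The IC-minus-Ova difference in log2 CPM was -0.12, -0.44 and -0.24 in DMSO for mice A, B and C, and 0.25, 0.40 and 0.18 in iBET. The interaction was 0.56 (SE 0.16, 95% interval 0.23 to 0.90), with an unadjusted p of 0.00333 and an adjusted p of 1.00 over all genes, so it failed the correction. No gene of 11468 was called for the interaction in edgeR (0%; 292 had an unadjusted p under 0.05). DESeq2 called 4 genes, or 7 with mouse as a block, and none was a SOCS gene.

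**Figure D3:**
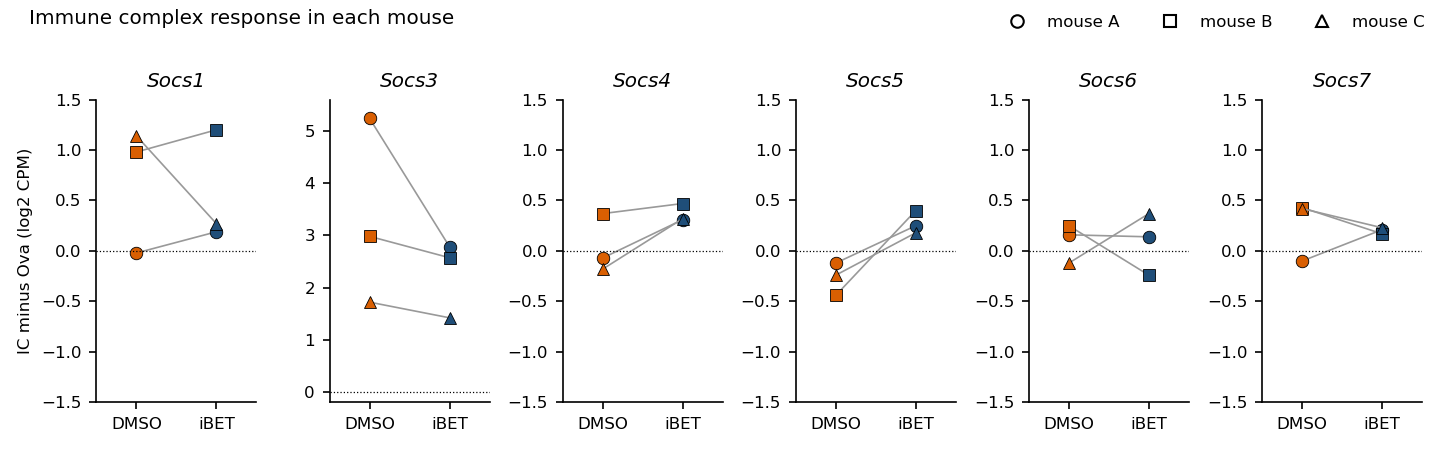
IC-minus-Ova difference in log2 CPM (y axis) in DMSO and in iBET for the 6 tested SOCS genes; lines join the same mouse, the dotted line is no change, and Socs3 has its own scale. Socs3 is above 0 in every mouse in both arms, and Socs5 is below 0 in DMSO (-0.12 to -0.44) and above 0 in iBET (0.18 to 0.40) in every mouse.

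For Socs4, Socs6 and Socs7 the differences with IC were small. In DMSO they had log2 fold changes of 0.08, 0.10 and 0.27, and in iBET of 0.37, 0.10 and 0.20, with adjusted p between 0.530 and 0.935. For Socs6 the 95% intervals, -0.21 to 0.41 and -0.20 to 0.39, exclude a 2-fold change in either direction. Socs4 in iBET had the smallest unadjusted p of these, from 17.4, 15.8 and 15.1 CPM to 21.5, 21.9 and 18.9 (unadjusted p = 0.0322, adjusted p = 0.597). For Socs4, Socs7 and Socs1 the variance fitted by the model fell below counting error in some or all libraries, and no interval is given for them.

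iBET had a broader effect on the family. Of the 6 tested members 3 passed the test in Ova and 3 in IC, the same 3 genes in the same directions: Socs5 was lower with iBET and Socs6 and Socs7 were higher. Among all genes tested 31.3% were called for iBET in Ova, 17.1% higher and 14.2% lower, and 34.8% in IC, 19.0% higher and 15.8% lower. A change with iBET was thus common among all genes, and 3 of 6 is too few to set the family apart from them. The Ova and IC comparisons use separate libraries, all from the same 3 mice.

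Socs5 (chr17:87107679-87137839, plus strand, GRCm38/mm10) showed the largest change of the tested members with iBET in Ova. The 3 iBET Ova libraries, at 20.0 to 22.5 CPM, lay far below the 44.7 to 56.0 CPM of the DMSO Ova libraries. Its log2 fold change was -1.28 (SE 0.11, 2.43-fold lower, adjusted p = 6.98e-06), and -1.41 without the Rn45s-rich library. In IC the fall was smaller, from 41.2 to 46.2 CPM in DMSO to 24.9 to 26.8 in iBET, with a log2 fold change of -0.72 (SE 0.11, 1.65-fold lower, adjusted p = 0.000322). Both falls were seen in 3 of 3 mice. The difference between them is the interaction given above.

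Socs7 (chr11:97362551-97398542, plus strand) stood at 19.5, 17.5 and 20.4 CPM in DMSO Ova and at 35.8, 37.3 and 39.6 CPM in iBET Ova. In IC it stood at 18.2, 23.7 and 27.4 CPM in DMSO and at 41.6, 42.0 and 46.4 CPM in iBET. All 6 iBET libraries were higher than all 6 DMSO libraries. Its log2 fold changes were 0.98 (SE 0.15, 1.97-fold) in Ova and 0.91 (SE 0.14, 1.88-fold) in IC, with adjusted p of 0.000325 and 0.000346, in 3 of 3 mice each, and the value in Ova was 0.94 without the Rn45s-rich library. The iBET calls for Socs5 and Socs7 held in every alternative tried, including each library and each mouse left out in turn.

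Socs6 rose less. It stood at 31.3, 25.0 and 33.3 CPM in DMSO Ova and 40.4, 47.1 and 40.5 in iBET Ova, and at 35.0, 29.7 and 30.6 in DMSO IC and 44.4, 39.9 and 52.5 in iBET IC. No DMSO library reached the lowest iBET library. The log2 fold change was 0.52 (SE 0.14) in both settings, with adjusted p of 0.0152 in Ova and 0.0120 in IC, and 0.50 in Ova without the Rn45s-rich library (adjusted p = 0.0313). The call in Ova was lost without the mouse B library of DMSO Ova (0.39, adjusted p = 0.0778) or of iBET Ova (0.45, 0.0655) and without mouse B (0.32, 0.237). In IC it was lost without the mouse C library of iBET IC (0.41, 0.0575) and without mouse C (0.38, 0.146). The annotation places AC118614.1 on the opposite strand of the Socs6 locus and AC122398.2 and AC122398.3 on the same strand, and since the counting is not known to use strand, reads of these genes could be part of the Socs6 value.

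**Figure D4:**
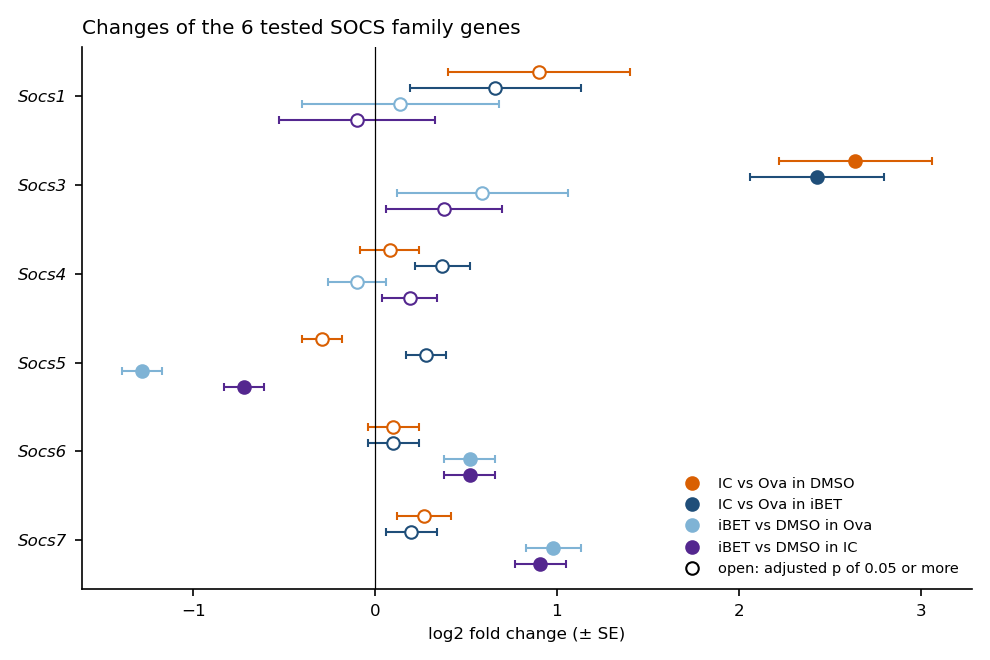
Log2 fold change ± SE (x axis) of the 6 tested SOCS genes in the 4 comparisons; filled points have an adjusted p under 0.05 and open points do not. Socs3 is filled for IC only (2.64 and 2.43), Socs5 (-1.28 and -0.72), Socs6 (0.52 and 0.52) and Socs7 (0.98 and 0.91) are filled for iBET only, and Socs1 and Socs4 are open throughout.

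Socs4 and Socs1 did not pass the test with iBET. Socs4 (chr14:47276931-47296102, plus strand) ranged from 14.6 to 21.9 CPM over the 12 libraries, with log2 fold changes of -0.10 in Ova (adjusted p = 0.870) and 0.19 in IC (0.369). Socs1 (chr16:10782240-10785536, minus strand), the inhibitor of interferon signalling, summed to 15 counts in DMSO Ova, 32 in DMSO IC, 19 in iBET Ova and 36 in iBET IC. In DMSO Ova its libraries spanned 0.414 to 0.690 CPM, and in DMSO IC 0.505 to 1.54. The iBET Ova libraries spanned 0.441 to 0.772 CPM and the iBET IC libraries 0.719 to 1.26. The groups overlapped in all 4 comparisons. Its log2 fold changes with IC were 0.90 (SE 0.50) in DMSO and 0.66 (SE 0.47) in iBET, with adjusted p of 0.559 and 0.826, and those with iBET were 0.14 (SE 0.54) and -0.10 (SE 0.43). At these counts a change of this size was not detectable.

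The STAT5-linked members Cish and Socs2 were near the limit of detection. Cish (chr9:107296026-107302784, plus strand) summed to 4 counts in DMSO Ova, 5 in DMSO IC, 4 in iBET Ova and 6 in iBET IC, and no library exceeded 0.307 CPM. Its locus overlaps the opposite-strand genes Gm17040 and Gm17041. Socs2 (chr10:95385362-95417180, minus strand) summed to 5 counts in each DMSO group and to 14 in iBET Ova and 17 in iBET IC. When no filter on low counts was used, Socs2 had log2 fold changes of 1.26 (SE 0.85) for iBET in Ova and 1.45 (SE 0.81) in IC, with adjusted p of 0.362 and 0.238, and Cish had an adjusted p of 1.00 in all comparisons.

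The other genes of the pathway were taken from 8 lists that hold 110 genes, 82 of them tested. IC in DMSO changed 4 of the 82 (4.88%), beside 1.22% of all genes tested. The 3 that rose are STAT-linked targets: Icam1, an adhesion molecule (log2 fold change 1.24, adjusted p = 0.00142), Cebpb, a transcription factor (0.71, 0.0279), and Pim1, a kinase gene driven by STAT factors (0.74, 0.0336). The one that fell is Lifr, the receptor chain of leukaemia inhibitory factor (-0.99, 0.00142). In iBET, IC changed 1 of the 82 (1.22%, beside 0.349% of all genes), Icam1 (1.33, adjusted p = 0.00118), and Pim1 gave 0.53 (0.211). These counts depended on the fit: they were 7 in DMSO and 3 in iBET with DESeq2 and with 1 surrogate variable, 2 and 2 without the Rn45s-rich library, 4 and 5 without mouse A, and 0 and 3 with the compared groups alone. Without 1 of the mouse B libraries of DMSO Ova, iBET Ova or DMSO IC, or the mouse C library of DMSO IC, the count in DMSO was 2, and without the mouse C library of iBET Ova that in iBET was 2. The number called over all genes moved too, from 140 in DMSO and 40 in iBET. It was 271 and 105 with DESeq2, 387 and 103 with 1 surrogate variable, and 123 and 56 without the Rn45s-rich library. It was 159 and 305 without mouse A, and 5 and 99 with the compared groups alone. The calls for Pim1 and Cebpb were lost in 8 and 5 of the 12 fits that left out a library, and leaving out mouse B or mouse C ended all 4 calls in DMSO. For Icam1 in iBET the adjusted p rose to 0.323 without mouse B and 0.0634 without mouse C.

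Cytokine transcripts were scarce. Only 4 of 18 ligand genes were tested and none was called in any comparison. Il6, whose receptor chain Socs3 inhibits, was listed at 0 in all Ova libraries and averaged 0.221 ± 0.0309 CPM in DMSO IC and 0.0178 ± 0.0308 in iBET IC (SD, n = 3), below the filter. Il10, the anti-inflammatory cytokine, averaged 1.12 ± 0.980 CPM in DMSO Ova and 0.394 ± 0.398 in iBET Ova (log2 fold change -1.71, adjusted p = 0.0823). In IC it averaged 0.851 ± 0.502 in DMSO and 0.279 ± 0.154 in iBET (-1.45, 0.153).

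iBET changed 32 of the 82 pathway genes in Ova, 18 higher and 14 lower (39.0%), and 34 in IC, 19 higher and 15 lower (41.5%), near the 31.3% and 34.8% of all genes tested. The median log2 fold change was 0.01 and 0.03, beside 0.02 and -0.00 over all genes tested. Without mouse B the counts of pathway genes fell to 9 and 13, and without mouse C to 17 and 21. Calls over all genes fell as well, from 3593 in Ova and 3987 in IC. They were 1310 and 1769 of 11484 without mouse B, and 2031 and 2497 of 11553 without mouse C. Among genes named below, Jak1, Usp18, Bcl3 and Asb1 lost their calls in both settings without mouse B, and Il4ra lost its call in Ova. Other named genes lost calls in these fits too. Of 20 receptor genes 2 rose and 5 fell in Ova, and 2 rose and 4 fell in IC. Lifr rose (log2 fold change 1.52 in Ova, adjusted p = 1.78e-06, and 2.15 in IC, 1.21e-07) and so did the IL-4 receptor chain Il4ra (0.69, 0.00411, and 0.79, 0.00122). The IL-7 receptor Il7r fell (-1.80, 8.30e-06, and -1.76, 7.87e-06), as did Il21r (-1.63, 0.000107, and -1.55, 0.000106). Il6st, which encodes gp130, gave -0.01 and 0.12 (adjusted p = 0.955 and 0.432), at 152 to 170 CPM on average in each group.

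Of the 4 JAK kinases, Jak1 rose with iBET in both settings (0.41, adjusted p = 0.00251, and 0.37, 0.00354). Both Jak1 calls were lost without mouse B (adjusted p = 0.0883 in Ova and 0.101 in IC) and without mouse C (0.0790 and 0.0595). Jak2 passed in Ova only (0.31, 0.0298; 0.25, 0.0626 in IC), and lost that call in 6 of 12 fits that left out a library and with DESeq2. Tyk2 gave 0.26 and 0.19 (0.400 and 0.522). The 7 STAT genes split by direction, with 3 higher and 1 lower in Ova (57.1% called) and 3 higher and 3 lower in IC (85.7%). Over all genes tested 31.3% and 34.8% were called, and whether this small list differs from that share was not tested. Stat3, the factor downstream of gp130, went from 78.9 ± 8.58 to 139 ± 13.2 CPM in Ova (0.81, adjusted p = 0.000333) and from 78.5 ± 1.23 to 136 ± 18.7 in IC (0.79, 0.000312). Stat2, an interferon-responsive factor, rose by 0.85 (2.24e-05) and 0.82 (2.33e-05).

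Stat6, the factor of IL-4 signalling, fell from 365 ± 13.8 to 263 ± 16.0 CPM in Ova (-0.47, adjusted p = 0.00204) and from 304 ± 17.3 to 245 ± 16.8 in IC (-0.31, 0.0200). Stat5a rose (0.52, 0.0159, and 0.44, 0.0277), whereas Stat5b gave -0.28 and -0.14 (0.0785 and 0.341). Stat4 fell in IC (-1.39, 0.00409). Several of these calls were fragile. Stat5a lost its call in 3 of 12 fits that left out a library in each setting, and in IC Stat6 lost its call in 4. Stat3 and Stat2 kept theirs in every alternative.

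Of the inhibitors outside the SOCS family, the test called 8 of 12 in Ova (5 higher, 3 lower) and 9 of 12 in IC (6 higher, 3 lower), with median log2 fold changes of 0.36 and 0.27. These are 66.7% and 75.0% of the list, beside 31.3% and 34.8% of all genes tested. Whether the list differs from that share was not tested. The adaptor Sh2b3, which restrains JAK2, rose (0.76, adjusted p = 6.73e-05, and 0.92, 1.29e-05). The phosphatase Ptprc, known as CD45, fell (-0.62, 0.000190, and -0.47, 0.00112). Usp18, the brake on the interferon receptor, fell (-0.93, 0.00378, and -0.77, 0.00892), and so did the phosphatase Ptpn6, known as SHP-1 (-0.87, 0.0330, and -1.12, 0.00880). In Ova the call for Ptpn6 was lost in 5 of 12 fits that left out a library. Other calls in this list, not named here, were also lost in some of these fits in both settings. Among 12 STAT-linked targets 5 rose and 2 fell in Ova, and 3 rose and 3 fell in IC. Pim1 rose (1.10, 0.000158, and 0.89, 0.000391), while Bcl3 (-1.40, 0.00147, and -1.12, 0.00265) and Fos (-0.96, 0.00557, and -1.55, 0.000232) fell.

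Of 8 tested genes listed as partners in cullin ubiquitin ligases, 2 were called in each setting (25.0%), all lower. Over all genes tested 31.3% were called in Ova and 34.8% in IC. Only Cul5 was called in both settings. Cul5, the cullin scaffold of SOCS ubiquitin ligases, fell by a log2 fold change of 0.63 in Ova (adjusted p = 0.000234) and 0.60 in IC (0.000266). Cul2 fell in Ova (-0.49, 0.00748) and the neddylation enzyme Ube2m in IC (-0.63, 0.0100). Of 15 tested genes with a SOCS box outside the family, 13.3% were called in Ova and 26.7% in IC. In Ova 1 rose (Asb1, 0.75, 0.00867) and 1 fell (Spsb2, -0.60, 0.0187). In IC 4 rose, led by Wsb1 (0.64, 0.00115) and Spsb3 (0.67, 0.00475). Spsb2 lost its call in 3 of 12 fits that left out a library.

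**Figure D5:**
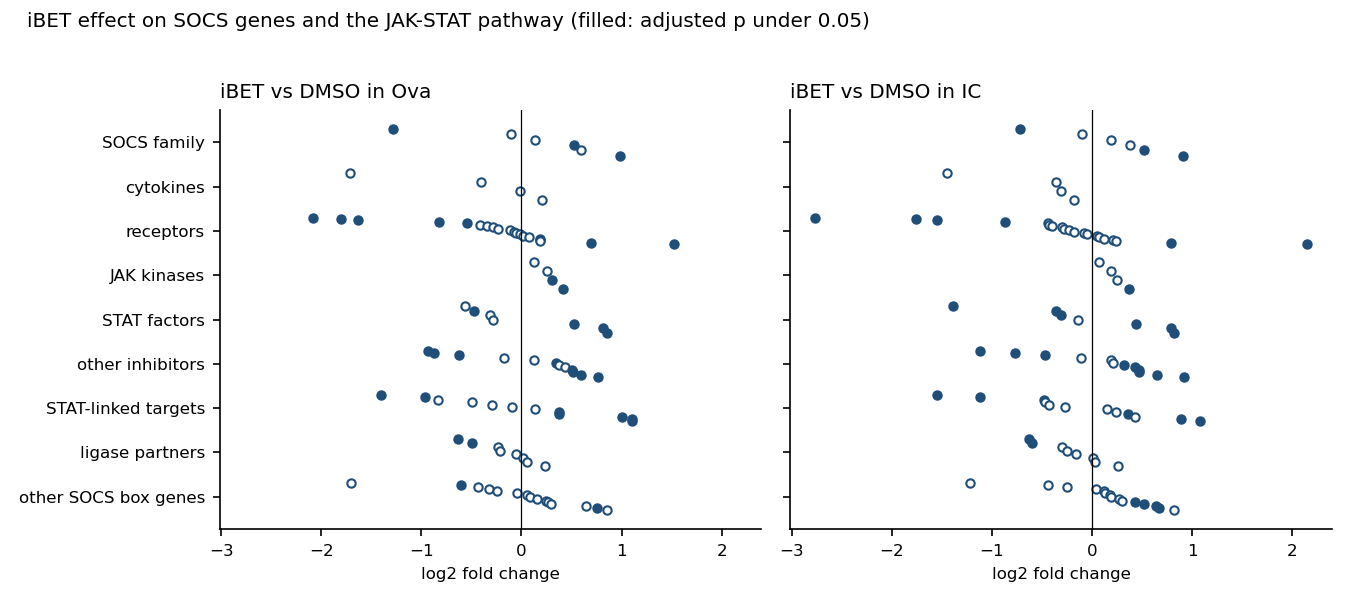
Log2 fold change with iBET (x axis) in Ova (left) and IC (right) for the tested SOCS genes and 8 lists of JAK-STAT pathway genes; each point is 1 gene, filled where the adjusted p is under 0.05. Filled points lie on both sides of 0 for the SOCS family, receptors, STAT factors, other inhibitors and targets. For the ligase partners 2 of 8 are filled in each panel, both on the lower side.

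For each called member the genes with the most similar profile were sought among 9427 genes with a mean count of at least 50, by Pearson correlation of log2 CPM over the 12 libraries. These libraries share groups and mice, so the values are descriptive. Socs3 was most like Slc11a2 (r = 0.958), an iron transporter gene, Zc3h12a (0.938), which encodes an RNase that degrades inflammatory transcripts, and Sepsecs (0.933). Their log2 fold changes with IC in DMSO were 0.90, 0.44 and 0.54, smaller than that of Socs3. Socs5 was most like Arhgef6 (0.977), Gm1966 (0.973) and Rasgrp3 (0.972), which had log2 fold changes of -0.88, -2.18 and -2.95 with iBET in Ova. Socs7 was most like Ero1l (0.987), a gene of oxidative protein folding, Sesn2 (0.982), a stress-response gene, and Wdr47 (0.979), with 0.79, 1.52 and 1.07 for iBET in Ova. Socs6 was most like Gm7120 (0.940), Klhl11 (0.932) and Dync1h1 (0.930), the dynein heavy chain, with 1.29, 0.63 and 0.54.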

How the data were processed

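RNA from 12 BMDM libraries was prepared, per the labels, with a SMARTer Pico total RNA kit. The authors trimmed reads with Trim Galore, aligned them to mm10 with HISAT2 and deposited counts per gene symbol from featureCounts. They also deposited a normalized signal, which was checked to equal counts over the DESeq2 size factor (largest relative gap 4.89e-15). Annotation, strand and multi-mapping are not given in the sources used here. No 2 libraries held identical values.

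Tests were run on the counts with edgeR 4.0.16 in R 4.3.3. filterByExpr (minimum count 10) kept 11468 genes. All 12 libraries entered 1 quasi-likelihood model (TMM factors, robust estimates, a term for each group) with 5 contrasts. P-values were two-sided, Benjamini-Hochberg adjusted over all genes tested, and called under 0.05. SE is the absolute log2 fold change over the root of F. Changes per mouse use log2 CPM with a prior count of 2. Precision is limited by 3 libraries per group and, for low genes, by counting error. The code was tested on simulated data. Pairing by mouse comes from the labels: deviations from group means correlated at -0.07 to 0.54 (median 0.26) in 18 pairs from the same mouse and at -0.50 to 0.27 (median -0.13) in 36 from different mice.

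Exon lengths and positions are from GENCODE vM21 (GRCm38/mm10). Alternatives were DESeq2 1.42.0 and its size factors, other count filters, mouse as a block, 1 surrogate variable (sva 3.50.0), compared groups alone, Rn45s removed, the normalized signal in limma 3.58.1 (log2 of value plus 1), and each library and mouse left out. All 8 members are named; in each pathway list at most 2 genes per direction and contrast with the smallest p are named, plus Jak1, Jak2, Tyk2, Stat3, Stat5a, Stat5b, Stat6, Il6, Il10, Il6st and Pim1, and the 3 genes most like each called member. Some genes that this rule selects are not reported here. Members and lists were chosen with earlier results of these data known.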

Additional observations from a re-analysis of the deposited data

Results flagged for a closer look

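Socs5 was singled out because its IC response had opposite signs in the 2 arms in every mouse, lower with IC in DMSO and higher with IC in iBET. The difference between the arms was 0.56 on the log2 scale (SE 0.16) and had an adjusted p of 1.00 over all genes in edgeR. Over the alternatives it stayed between 0.41 (without mouse B) and 0.67 (without the Rn45s-rich library), and its adjusted p was lowest, at 0.473, without mouse A. The sign pattern was looked for only in the tested members, and its share over all genes tested was not counted. No group had the 4 samples needed to look for single outlying libraries.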

How the results depend on the processing

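The count of members called for IC in DMSO, 1, became 0 with at least 10 counts in every library (where Socs3, at 0 in a library, could not be tested), 0 with the compared groups alone and 0 with the normalized signal in limma, where Socs3 had an adjusted p of 0.0512. For IC in iBET it became 0 with at least 10 counts in every library and 0 in limma (Socs3 adjusted p = 0.500). The counts ranged from 0 to 1 when a library or mouse was left out, and the cause was not tested. With mouse as a replicate block, Socs3 had adjusted p of 0.00505 in DMSO and 0.00554 in iBET, and the block changed no member call. Over the log2 fold changes of the members, 689 values under alternatives kept their direction and side of the threshold, 17 lost the call and 20 changed sign, all of the last in uncalled values with a library or mouse left out. These ranged from -0.09 to 0.23 for Socs4 and from -0.03 to 0.23 for Socs6 with IC in DMSO, from -0.05 to 0.26 for Socs6 with IC in iBET, and from -0.17 to 0.48 (Ova) and -0.50 to 0.25 (IC) for Socs1 with iBET. With a library or mouse left out, interactions ranged from -0.60 to 0.18 for Socs1, -0.57 to 0.06 for Socs3, -0.28 to 0.24 for Socs6 and -0.21 to 0.07 for Socs7; the Socs3 interaction was -1.33 in limma. Socs1 could not be tested without mouse B. DESeq2 size factors moved the median of all genes by -0.04 and -0.03 for iBET in Ova and IC and the share of calls that were higher from 54.6% to 49.5% and 50.6%. Depth limits Socs1, Socs2 and Cish in all libraries and Socs3 in the Ova groups.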
